A study of Mus musculus with 12 samples.

Results

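The comparison set collecting lymphatic endothelium against pre-collecting lymphatic endothelium of mouse ear skin. It used the 3 arrays titled col LEC and the 3 arrays titled pre-col LEC, 6 of the 12 arrays of the study, and described all 19675 genes that were tested. The other arrays were 3 of capillary lymphatic cells (cap LEC) and 3 of blood endothelial cells (BEC). All mice were of strain C57BL6 and carried the transgene Tg(Prox1-EGFP)KY221Gsat, in which the promoter region of the lymphatic regulator Prox1 drives a green fluorescent protein (Prox1-GFP). Age was given both as adult and as 5 weeks, and no other allele or agent was named for any group. Ear skin was dissociated, endothelial cells were enriched on beads against PECAM1, and lymphatic endothelial cells (LEC) were sorted on podoplanin (PDPN) and the reporter. The surface level of LYVE1 then divided the LEC: col LEC had low or no LYVE1, pre-col LEC an intermediate level and cap LEC a high level. BEC were positive for PECAM1 and negative for PDPN, Prox1-GFP and LYVE1. Vessel names thus stand for gates on 1 surface protein, not for vessels seen under a microscope, and the labels do not say whether an array came from 1 mouse or from a pool. Each array was made from 500 pg of total RNA. P-values and errors rest on the spread between arrays of the same group, pooled over all 12 arrays, those of cap LEC and BEC included.

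Lymph enters blind-ended capillaries, whose loosely joined cells carry much LYVE1, a receptor for the matrix sugar hyaluronan. It then passes through pre-collecting vessels into collecting vessels, which have valves, a continuous basement membrane and a coat of smooth muscle. Pre-collecting vessels are known to combine capillary-like stretches with valves, and the comparison covers the last step of this route. Collecting vessels are also known for tonic and flow-driven nitric oxide production, and their endothelium restricts leakage of the lymph it carries.

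Medians of the arrays lay between 6.06 and 6.17 on the log2 scale of RMA, the normalization the authors used. RMA equalises the arrays' distributions, so like medians are no measure of array quality. Correlations across genes were 0.983 to 0.988 within col LEC, 0.979 to 0.987 within pre-col LEC and 0.977 to 0.988 between the 2 groups, against 0.910 to 0.923 with BEC. Pre-col LEC replicate 1 stood apart in markers of 2 other cell types. The summed linear signal of 15 mural cell markers was 1895 to 2029 in col LEC, against 5089, 2659 and 2170 in pre-col LEC replicates 1, 2 and 3. That of 13 fibroblast markers was 2571, 1479 and 1569 in col LEC, against 4532, 1655 and 1777 in pre-col LEC. In all 4 groups, replicate 2 had little Xist, the RNA of the inactive X chromosome (5.30 to 5.64, against 10.4 to 11.5 in replicates 1 and 3). The Y-linked genes Kdm5d, Uty and Eif2s3y were higher there.

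With limma on all 12 arrays, 59 genes differed at an adjusted p under 0.05, which was 0.300% of the genes tested. Among them 23 were higher in col LEC (0.117%) and 36 lower (0.183%), and 23 of the 59 differed at least 2-fold, 10 higher and 13 lower. For all 59 the 3 col LEC arrays lay entirely on one side of the 3 pre-col LEC arrays, as they did for 11.3% of all genes tested (6.95% with col LEC above and 4.39% with col LEC below). At an unadjusted p under 0.05 there were 1150 genes (5.84%). The median log2 difference over all genes was 0.018, and the smallest difference called was 0.43 in size. The number of calls rested on the arrays used: 24 genes were called without col LEC replicate 1, 32 without col LEC replicate 2, 27 without pre-col LEC replicate 2 and 35 without pre-col LEC replicate 3. With each array weighted by its quality 153 genes were called, 78 of them higher. Fitting the 6 arrays alone, without the spread measured in the other groups, called 5 genes. Levels were also set against the 5222 rows that the platform marks as negative controls, whose medians were 5.64 to 5.94 and 95th percentiles 9.13 to 9.33 on the 6 arrays. In the group where it was lower, a called gene was above the median of these rows on every array for 57 of 59 genes, and below their 95th percentile on every array for 39. On all 6 arrays 21 of the 59 were below it, among them Pcdh7, Ahsg, Itih2, Rspo3, Hecw2, Brinp1 and Antxr2, and fold changes of such weak signals can be understated. The stability of single calls is given over 6 fits, each without 1 col LEC or pre-col LEC array. Those fits still use the spread of cap LEC and BEC. Of the named called genes, only Parm1, Enpp3, Aqp1 and Lyve1 were also called in the fit of the 6 arrays alone. Each array holds RNA of many cells, so a lower value can mean fewer cells with the RNA or less RNA per cell, which cannot be told apart.

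**Figure D1:**
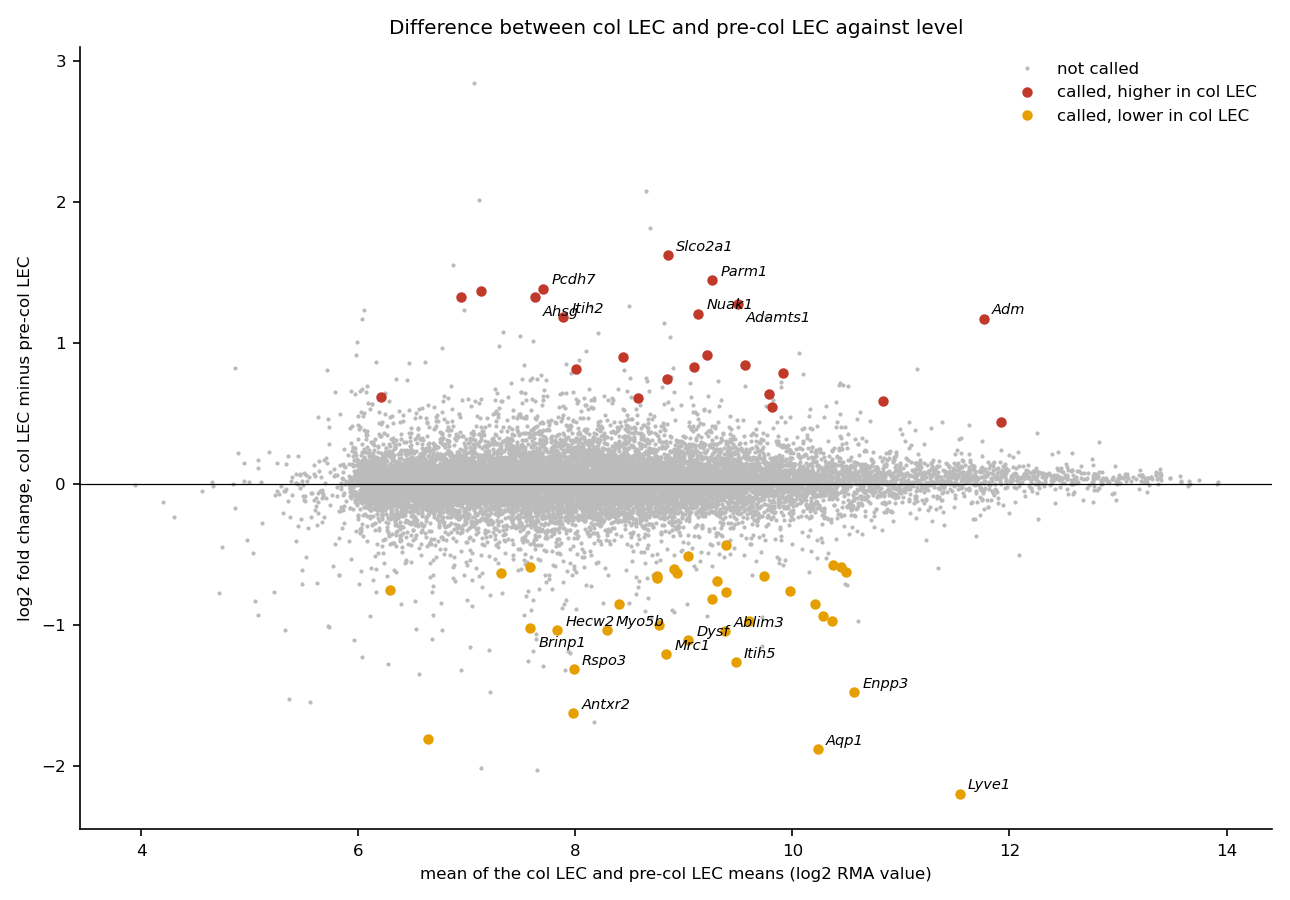
Each point is 1 of 19675 genes, with the mean log2 RMA value of the 2 groups on the x axis and the log2 fold change, col LEC minus pre-col LEC, on the y axis. Of the 59 coloured genes, 23 lie above 0 and 36 below, and the genes at least 2-fold apart that carry standard gene names are labelled.

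Of the sort genes, 1 differed between the groups and 3 did not pass the test. Lyve1, whose protein divided the groups, measured 10.20, 10.30 and 10.84 in col LEC, against 12.47, 12.68 and 12.76 in pre-col LEC, and its log2 difference of -2.19 ± 0.20 describes the gate and is no finding. It stayed above BEC, which had 7.30, 6.65 and 6.57. Prox1, the master regulator of lymphatic identity, measured 12.53, 12.51 and 12.60 in col LEC and 12.38, 12.56 and 12.59 in pre-col LEC, with a log2 difference of 0.039 ± 0.20 (limma, adjusted p = 1.00). Pdpn, the gene of podoplanin, differed by -0.20 ± 0.12 (adjusted p = 1.00) and Pecam1, the pan-endothelial adhesion gene, by 0.039 ± 0.073 (adjusted p = 1.00). BEC averaged 6.93 ± 0.54 for Prox1 and 7.14 ± 0.25 for Pdpn (SD, n = 3), far below both LEC groups. BEC were sorted as negative for PDPN and Prox1-GFP, so this gap also describes the gate. The error of the Prox1 difference takes in the spread of BEC, and it was 0.078 in the fit of the col LEC and pre-col LEC arrays alone.

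Transporters and channels held the largest difference in each direction among the named called genes besides Lyve1. Slco2a1, the prostaglandin transporter that takes prostaglandins into cells, measured 9.26, 9.98 and 9.75 in col LEC, against 7.68, 8.35 and 8.08 in pre-col LEC. All 3 col LEC arrays were higher, by 3.08-fold (log2 difference 1.62 ± 0.19, limma, adjusted p = 0.00387), and BEC at 9.62, 9.89 and 9.73 lay in the same range as col LEC. Aqp1, a water channel of many endothelia, measured 9.28, 9.10 and 9.51 in col LEC, against 11.25, 11.13 and 11.14 in pre-col LEC. It was 3.68-fold lower (log2 difference -1.88 ± 0.10, limma, adjusted p = 1.39e-05), with a gap between the groups several times the spread within either. Slco2b1, an organic anion transporter, was lower too, at 9.82, 9.83 and 9.70 in col LEC, against 10.47, 10.77 and 10.66 in pre-col LEC (-0.85 ± 0.094, adjusted p = 0.00276). The calls of these 3 genes held when any 1 of the 6 arrays was left out. Of the 3, only Aqp1 stayed called in the fit of the 6 arrays alone.

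Smaller differences were called for 4 more transport genes. Slc2a1, the glucose transporter GLUT1, was higher (9.94, 10.32 and 10.04 in col LEC, against 9.46, 9.43 and 9.49 in pre-col LEC), and so was Slc41a1, a magnesium transporter (12.18, 12.22 and 12.04, against 11.67, 11.72 and 11.72). Kcnn3, a calcium-activated potassium channel, was lower (10.01, 10.10 and 10.34 in col LEC, against 10.78, 10.81 and 10.63 in pre-col LEC), as was Scn3a, a voltage-gated sodium channel (8.97, 8.86 and 9.21, against 9.56, 9.90 and 9.86). Their log2 differences were 0.64, 0.44, -0.59 and -0.76, with limma adjusted p between 0.0358 and 0.0443. Leaving out 1 of the 6 arrays raised the adjusted p to 0.145 without pre-col LEC replicate 2, 0.165 without col LEC replicate 2, 0.154 without col LEC replicate 2 and 0.187 without col LEC replicate 2, in the same order of genes. Apart from Slco2a1, none of the other 13 tested genes of prostaglandin handling was called. Of 26 tested water, ion and potassium channel genes Aqp1 and Kcnn3 were called, beside 0.300% over all genes. Scn3a is not on that list. Piezo2, a stretch-activated channel, missed the threshold at -0.94 ± 0.18 (adjusted p = 0.0564).

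**Figure D2:**
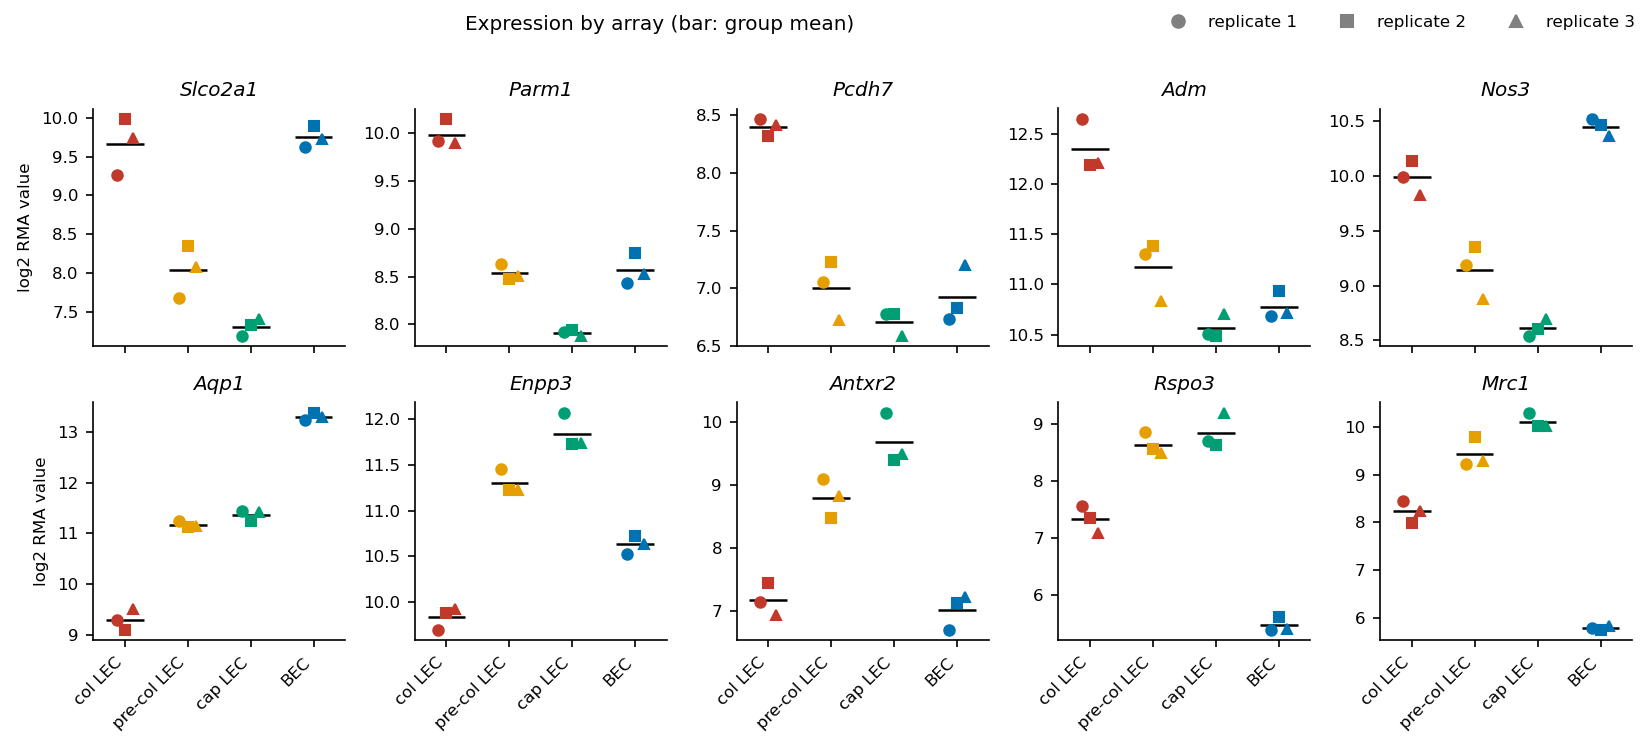
Log2 RMA values (y axis) of 10 genes on each of the 12 arrays, with a marker shape for each replicate and a bar at each group mean. In the upper row the 3 col LEC arrays lie above the 3 pre-col LEC arrays and in the lower row below them, for example Aqp1 at 9.10 to 9.51, against 11.13 to 11.25.

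Promoters of 4 called genes, picked by hand among transporters, secreted peptides and ectoenzymes, are shown to give their sequence context. They come from RefSeq on GRCm38.p6 and cover 250 bases before to 50 bases after the start. Capitals mark the letters TATAAA or GGGCGG on either strand, which are the letters of the TATA box and the GC box. Whether a match works as such an element was not tested, and that of Enpp3 lies on the other strand at -209. The windows are Slco2a1 at chr9:103008237-103008536 on the plus strand, Adm at chr7:110627407-110627706 on the plus strand, Aqp1 at chr6:55336049-55336348 on the plus strand and Enpp3 at chr10:24836146-24836445 on the minus strand.
Slco2a1: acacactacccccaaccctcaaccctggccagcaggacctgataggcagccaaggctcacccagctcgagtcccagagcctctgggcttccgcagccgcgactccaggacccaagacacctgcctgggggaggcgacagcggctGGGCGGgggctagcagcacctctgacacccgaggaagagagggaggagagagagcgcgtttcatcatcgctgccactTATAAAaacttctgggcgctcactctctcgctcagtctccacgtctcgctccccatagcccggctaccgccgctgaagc
Adm: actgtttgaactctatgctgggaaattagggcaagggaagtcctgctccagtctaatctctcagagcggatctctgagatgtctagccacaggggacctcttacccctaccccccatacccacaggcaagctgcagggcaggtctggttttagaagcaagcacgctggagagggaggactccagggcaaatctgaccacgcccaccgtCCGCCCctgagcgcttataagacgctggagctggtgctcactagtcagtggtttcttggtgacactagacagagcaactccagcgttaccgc
Aqp1: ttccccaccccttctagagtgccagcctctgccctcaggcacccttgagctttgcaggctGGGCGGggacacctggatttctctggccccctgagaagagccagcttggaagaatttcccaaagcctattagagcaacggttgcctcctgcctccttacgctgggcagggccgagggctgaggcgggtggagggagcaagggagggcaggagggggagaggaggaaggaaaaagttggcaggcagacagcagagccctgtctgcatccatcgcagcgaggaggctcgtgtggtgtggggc
Enpp3: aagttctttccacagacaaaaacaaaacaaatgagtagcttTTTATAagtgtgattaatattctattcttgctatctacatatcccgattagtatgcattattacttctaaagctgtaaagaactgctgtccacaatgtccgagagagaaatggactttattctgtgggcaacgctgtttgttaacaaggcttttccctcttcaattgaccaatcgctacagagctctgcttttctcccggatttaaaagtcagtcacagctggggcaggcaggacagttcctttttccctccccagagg
Slco2a1 holds TATAAA with its first base at -29 from the start and GGGCGG at -106, Adm holds CCGCCC at -42, Aqp1 GGGCGG at -190 and Enpp3 TTTATA at -209. The table held a promoter for 35 of the 49 named called genes. TATAAA stood in 3 of the 14 promoters of higher genes and 2 of the 21 of lower genes, against 8.02% of the 12262 promoters of tested genes. GGGCGG stood in 10 of 14 and 14 of 21, against 58.2%. The AP-1 letters TGANTCA stood in 2 of 14 and 4 of 21, against 5.40%. None of these 35 windows held the KLF letters CCACACCC (3.81% of all), the forkhead letters TGTTTAC (2.63%) or the GATA letters AGATAAG (2.01%), each read on both strands. At shares this low 35 windows can readily hold none, so their absence says nothing particular about these genes.

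Secreted signals differed in both directions. Adm, the peptide adrenomedullin that tightens lymphatic endothelial junctions and is needed for lymphatic growth, measured 12.65, 12.19 and 12.21 in col LEC, against 11.30, 11.38 and 10.84 in pre-col LEC. It was 2.26-fold higher (1.18 ± 0.16, limma, adjusted p = 0.00964), and cap LEC and BEC averaged 10.57 ± 0.12 and 10.78 ± 0.14 (SD, n = 3 each). None of the other 20 tested genes of adrenomedullin and vasoactive peptides was called. Tgfa, a ligand of the EGF receptor, was higher at 9.32, 9.54 and 9.65 in col LEC, against 8.69, 8.83 and 8.50 in pre-col LEC (0.83 ± 0.11, adjusted p = 0.00722). Rspo3, a secreted enhancer of Wnt signalling, was lower at 7.56, 7.35 and 7.08 in col LEC, against 8.87, 8.56 and 8.49 in pre-col LEC (-1.31 ± 0.17, adjusted p = 0.00677). It was the only called gene among 38 tested of Wnt signalling and planar polarity. The calls of Adm, Tgfa and Rspo3 held without any 1 of the 6 arrays.

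Proteins that bind or carry hyaluronan were split. Itih2, a serum protein chain that becomes bound to hyaluronan, measured 8.80, 8.41 and 8.23 in col LEC, against 7.18, 7.41 and 7.28 in pre-col LEC, and was 2.27-fold higher (1.19 ± 0.13, limma, adjusted p = 0.00256). Its relative Itih5 measured 8.52, 8.63 and 9.39 in col LEC, against 10.26, 10.07 and 9.99 in pre-col LEC, and was 2.4-fold lower (-1.26 ± 0.19, adjusted p = 0.0151). The 2 genes of 1 family thus lay on opposite sides. Ptx3, a pentraxin that binds these chains in hyaluronan matrix, was lower by less (-0.59 ± 0.11, adjusted p = 0.0495). With Lyve1, this made 1 higher and 3 lower of 20 tested genes of hyaluronan binding and turnover, beside 0.300% called over all genes. The median of that list was -0.035. The Itih2 call held without any 1 of the 6 arrays, that of Itih5 in 2 of 6 fits (adjusted p up to 0.0782, without col LEC replicate 2), and that of Ptx3 in 0 of 6 fits (adjusted p up to 0.195, without col LEC replicate 3).

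Matrix proteins and proteases formed a mixed group. Adamts1, a secreted protease that cuts proteoglycans, measured 9.86, 10.54 and 10.01 in col LEC, against 8.96, 9.16 and 8.43 in pre-col LEC, with col LEC higher throughout (1.28 ± 0.20, limma, adjusted p = 0.024). Mmp2, a gelatinase, was lower at 9.02, 8.82 and 9.06 in col LEC, against 9.53, 9.58 and 9.85 in pre-col LEC (-0.69 ± 0.12, adjusted p = 0.0468). Tnxb, the matrix glycoprotein tenascin X, was lower at 10.06, 10.06 and 10.13 in col LEC, against 10.50, 10.85 and 10.63 in pre-col LEC (-0.57 ± 0.096, adjusted p = 0.0325). Mmrn2, an endothelial matrix protein, was higher at 11.11, 11.26 and 11.03, against 10.56, 10.67 and 10.39 (0.59 ± 0.11, adjusted p = 0.047). So was Ahsg, the serum glycoprotein fetuin-A, at 8.57, 8.21 and 8.10, against 6.97, 6.80 and 7.12 (1.33 ± 0.16, adjusted p = 0.00387). Ahsg kept its call without any 1 of the 6 arrays. Adamts1 kept it in 2 of 6 fits (adjusted p up to 0.0808, without col LEC replicate 2), Tnxb in 1 of 6 fits (adjusted p up to 0.136, without col LEC replicate 1), Mmp2 in 0 of 6 fits (adjusted p up to 0.197, without col LEC replicate 2), and Mmrn2 in 0 of 6 fits (adjusted p up to 0.203, without col LEC replicate 2).

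Among membrane proteins, both anthrax toxin receptors were lower in col LEC. Antxr2, which binds basement membrane collagen and laminin, measured 7.14, 7.44 and 6.93 in col LEC, against 9.09, 8.47 and 8.82 in pre-col LEC, and was 3.08-fold lower (-1.62 ± 0.22, limma, adjusted p = 0.0102). Antxr1, which binds fibrillar and basement membrane collagens, measured 9.45, 9.65 and 9.70 in col LEC, against 10.34, 10.30 and 10.43 in pre-col LEC (-0.76 ± 0.11, adjusted p = 0.0126). Mrc1, the mannose receptor of lymphatic endothelium and macrophages, measured 8.45, 7.99 and 8.25 in col LEC, against 9.23, 9.79 and 9.28 in pre-col LEC, and was 2.3-fold lower (-1.20 ± 0.15, adjusted p = 0.00677). No other gene of the 13 tested macrophage and dendritic cell markers was called, and Adgre1, Cd163 and Itgam did not pass the filter on low values. The summed signal of that list was 1849 to 2137 in col LEC and 2203 to 2343 in pre-col LEC. That sum holds Mrc1 itself, so its gap cannot be read as a difference in the other markers. The part of macrophages and dendritic cells in the result was not tested. Mrc1 kept its call without any 1 of the 6 arrays, Antxr2 in 5 of 6 fits (adjusted p up to 0.056, without col LEC replicate 1), and Antxr1 in 3 of 6 fits (adjusted p up to 0.0681, without pre-col LEC replicate 3).

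Other membrane genes were higher. Parm1, a mucin-like transmembrane protein, measured 9.91, 10.14 and 9.89 in col LEC, against 8.63, 8.47 and 8.50 in pre-col LEC, and its 2.72-fold difference had the smallest adjusted p of the higher genes (1.45 ± 0.098, limma, adjusted p = 6.65e-05). Pcdh7, a protocadherin, measured 8.46, 8.31 and 8.41 in col LEC, against 7.06, 7.23 and 6.73 in pre-col LEC, where it was close to the level in BEC (6.74, 6.83 and 7.20). It was 2.62-fold higher (1.39 ± 0.14, adjusted p = 0.00179), with every value below the 95th percentile of the negative control rows. Lsr, a lipoprotein receptor that also builds tricellular junctions, measured 8.69, 9.11 and 8.86, against 7.83, 8.11 and 8.01 (0.91 ± 0.12, adjusted p = 0.00722). Pcdh7 and Lsr were the 2 called of 34 tested genes of cadherins, protocadherins and junctions, beside 0.300% over all genes. Cldn11, a claudin of lymphatic valves, missed the threshold at 0.72 ± 0.14 (adjusted p = 0.0586). Il13ra1, a receptor chain for interleukins of type-2 immunity, was higher at 9.62, 9.78 and 9.60, against 8.94, 8.65 and 8.67 (0.91 ± 0.14, adjusted p = 0.0194). Cd93, an endothelial lectin-like receptor that binds the Mmrn2 protein, was higher at 10.30, 10.41 and 10.21, against 9.68, 9.32 and 9.56 (0.79 ± 0.14, adjusted p = 0.0425). The calls of Parm1, Pcdh7 and Lsr held without any 1 of the 6 arrays, that of Il13ra1 in 1 of 6 fits (adjusted p up to 0.0948, without pre-col LEC replicate 2), and that of Cd93 in 0 of 6 fits (adjusted p up to 0.172, without col LEC replicate 2).

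Lower membrane genes also included Gpnmb, a transmembrane glycoprotein, at 8.23, 8.24 and 8.34 in col LEC, against 9.09, 9.25 and 9.47 in pre-col LEC (-0.998 ± 0.11, limma, adjusted p = 0.00276). Adgrg3, an adhesion G protein-coupled receptor, was lower at 9.52, 9.90 and 10.03, against 10.56, 10.90 and 10.79 (-0.93 ± 0.17, adjusted p = 0.0449). Clstn1, a calsyntenin that links cargo to kinesin motors, differed by -0.62 ± 0.10 (adjusted p = 0.0295). Gpnmb kept its call without any 1 of the 6 arrays, Adgrg3 in 0 of 6 fits (adjusted p up to 0.161, without pre-col LEC replicate 2), and Clstn1 in 1 of 6 fits (adjusted p up to 0.124, without pre-col LEC replicate 2).

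Enzymes and signalling proteins were led by Enpp3, an ectoenzyme that hydrolyses extracellular nucleotides. It measured 9.70, 9.88 and 9.93 in col LEC, against 11.46, 11.23 and 11.23 in pre-col LEC, and was 2.77-fold lower (-1.47 ± 0.11, limma, adjusted p = 0.000132). It was the only called gene of 12 tested among ectonucleotidases and purine receptors. Nuak1, a kinase related to the energy sensor AMPK, measured 9.74, 9.85 and 9.63 in col LEC, against 8.52, 8.75 and 8.32 in pre-col LEC, and was 2.32-fold higher (1.21 ± 0.14, adjusted p = 0.00387). Nos3, the endothelial nitric oxide synthase, measured 9.996, 10.14 and 9.83 in col LEC, against 9.19, 9.35 and 8.88 in pre-col LEC (0.85 ± 0.12, adjusted p = 0.0126). All col LEC arrays were higher, and all lay below BEC at 10.52, 10.47 and 10.37. With Kcnn3, Nos3 was 1 of 2 called among 21 tested genes of flow response and vascular tone, beside 0.300% over all genes. Enpp3 and Nuak1 kept their calls without any 1 of the 6 arrays, and Nos3 did in 4 of 6 fits (adjusted p up to 0.0618, without col LEC replicate 1).

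Lower signalling genes were Hecw2, a ubiquitin ligase, at 7.41, 7.46 and 7.08 in col LEC, against 8.38, 8.36 and 8.31 in pre-col LEC (-1.03 ± 0.14, limma, adjusted p = 0.0121), and Rgs2, which shortens signalling through Gq, at 8.02, 8.27 and 7.65, against 8.76, 8.90 and 8.83 (-0.85 ± 0.14, adjusted p = 0.0253). Fyn, a Src-family kinase, had the smallest difference called (-0.43 ± 0.077, adjusted p = 0.0468). The call of Hecw2 held in 5 of 6 fits (adjusted p up to 0.056, without pre-col LEC replicate 2), that of Rgs2 in 2 of 6 fits (adjusted p up to 0.109, without pre-col LEC replicate 2), and that of Fyn in 0 of 6 fits (adjusted p up to 0.192, without col LEC replicate 1).

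Of 39 tested genes listed for cytoskeleton and membrane traffic, 1 was higher, Nuak1, and 3 were lower, beside 0.300% called over all genes. Dysf, the membrane repair protein dysferlin, measured 8.04, 8.73 and 8.69 in col LEC, against 9.38, 9.80 and 9.59 in pre-col LEC (-1.10 ± 0.17, limma, adjusted p = 0.024). Ablim3, an actin-binding LIM protein, measured 8.86, 8.67 and 9.06 in col LEC, against 9.74, 9.88 and 10.07 in pre-col LEC (-1.04 ± 0.11, adjusted p = 0.00203). Myo5b, a myosin that moves recycling endosomes, measured 7.64, 7.75 and 7.94 in col LEC, against 8.65, 8.69 and 9.09 in pre-col LEC (-1.03 ± 0.15, adjusted p = 0.0126). On each of these 3 the groups did not overlap. A further 5 called genes that are not on that list have roles in the cytoskeleton and differed by less. The intermediate filament gene Synm differed by -0.66, Raph1 (lamellipodin, at the leading edge of cells) by -0.65, Gmfg (which prunes branched actin) by -0.63, and Tppp3 (which binds microtubules) by -0.60. Csrp2, a LIM protein of the actin cytoskeleton, was higher by 0.55. Their adjusted p lay between 0.00566 for Gmfg and 0.0253 for Csrp2. Ablim3 and Gmfg kept their calls without any 1 of the 6 arrays. The adjusted p of the others went up to 0.106 without pre-col LEC replicate 2, 0.0682 without col LEC replicate 1, 0.0591 without col LEC replicate 1, 0.0873 without pre-col LEC replicate 3, 0.0726 without col LEC replicate 2 and 0.123 without col LEC replicate 1, for Dysf, Myo5b, Synm, Raph1, Tppp3 and Csrp2 in turn.

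Of 51 tested genes listed as transcription factors of endothelium, 2 were called, beside 0.300% over all genes. Gata6, a zinc-finger factor, measured 8.41, 8.37 and 8.45 in col LEC, against 7.49, 7.58 and 7.72 in pre-col LEC (0.82 ± 0.12, limma, adjusted p = 0.0132). Foxp2, a forkhead factor, measured 8.83, 8.83 and 8.98 in col LEC, against 8.25, 8.24 and 8.32 in pre-col LEC (0.61 ± 0.10, adjusted p = 0.0372), and cap LEC and BEC averaged 7.89 ± 0.11 and 6.004 ± 0.20 (SD, n = 3 each). The call of Gata6 held in 1 of 6 fits (adjusted p up to 0.0661, without col LEC replicate 1), and that of Foxp2 in 0 of 6 fits (adjusted p up to 0.159, without col LEC replicate 3). Foxc2, a valve factor, differed by 0.26 ± 0.14 (adjusted p = 0.972) and Gata2, another valve factor, by 0.25 ± 0.083 (adjusted p = 0.512). Genes with less clear roles completed the list: Prr15 was higher (0.75 ± 0.12), and Brinp1, a gene known from neurons (-1.02 ± 0.17), and Efcc1 (-0.65 ± 0.12) were lower. Their adjusted p were 0.0295, 0.0295 and 0.0495, and without 1 array went up to 0.12 without col LEC replicate 3, 0.136 without col LEC replicate 1 and 0.193 without col LEC replicate 1.

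For each gene the signed step col LEC minus pre-col LEC was tested against the signed step pre-col LEC minus cap LEC. Steps of equal size and opposite sign thus also count as unequal. Aqp1 was the 1 gene called (0.00508% of those tested), while 755 (3.84%) had an unadjusted p under 0.05. Its log2 step was -1.88 ± 0.10 from pre-col LEC to col LEC, beside -0.19 ± 0.10 from cap LEC to pre-col LEC, and the first minus the second was -1.68 ± 0.18 (limma, adjusted p = 0.0183). Cap LEC arrays measured 11.44, 11.25 and 11.42, close to pre-col LEC, and BEC measured 13.24, 13.38 and 13.31. That call was lost without any 1 pre-col LEC array, col LEC replicate 1, cap LEC replicate 2 or BEC replicate 3, and in a fit of the 9 LEC arrays. The 2 steps share the pre-col LEC arrays, so for other genes they are given side by side. Antxr2 had steps of -1.62 and -0.88 ± 0.22, Slco2a1 of 1.62 and 0.73 ± 0.19, and Nuak1 of 1.21 and -0.38 ± 0.14, in the order col LEC minus pre-col LEC, then pre-col LEC minus cap LEC. In that order the gate gene Lyve1 had -2.19 and -0.45 ± 0.20. For Lyve1 the first minus the second was -1.75 ± 0.34, as large as for Aqp1 but not called (limma, adjusted p = 0.806).

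**Figure D3:**
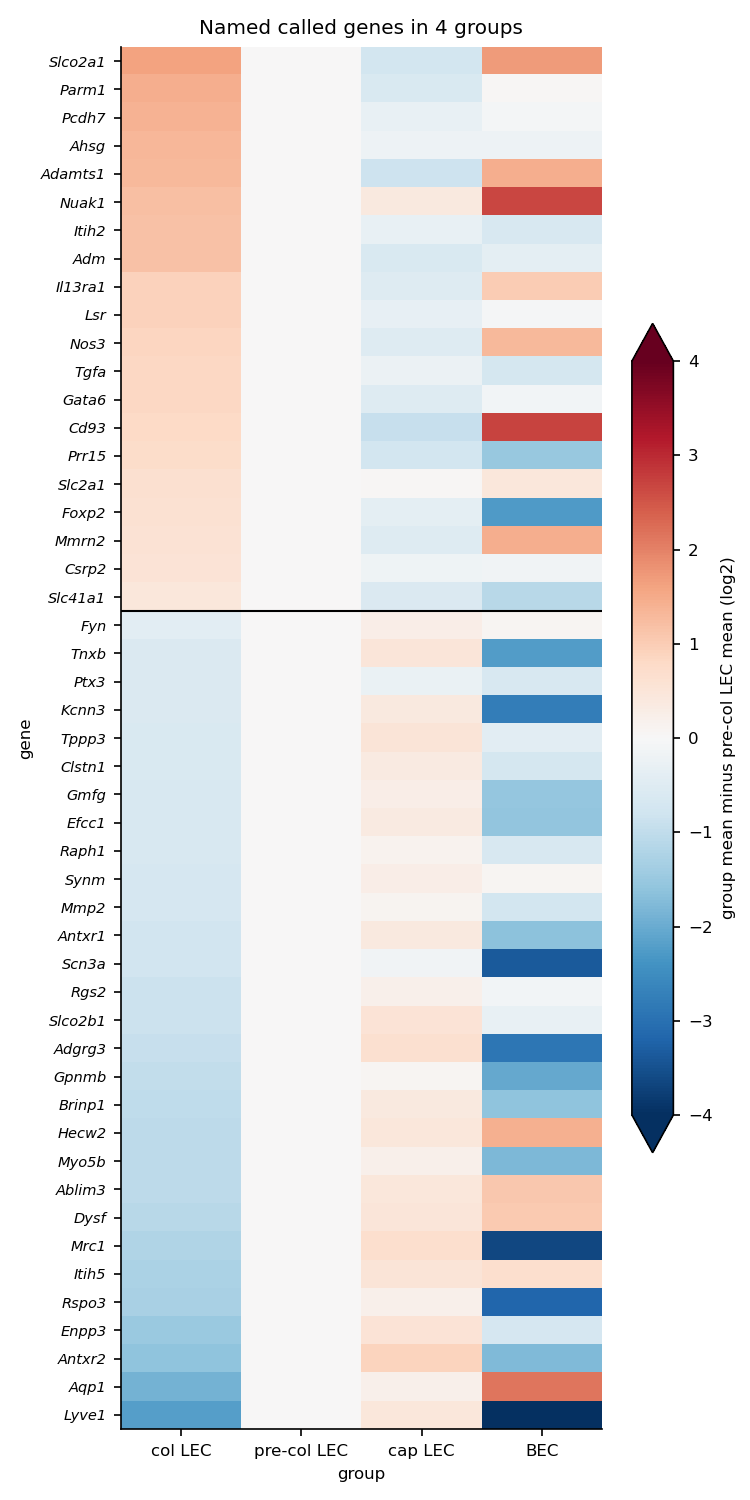
Group means of the 49 named called genes in col LEC, pre-col LEC, cap LEC and BEC, drawn as the log2 difference from the pre-col LEC mean, with 20 higher genes above the line and 29 lower genes below it. The pre-col LEC column is 0 by construction; Aqp1 is low in col LEC, near 0 in cap LEC and high in BEC.

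Lists of known vessel programmes differed in how many members were called. Of 15 tested capillary genes 7 were lower and none higher (Lyve1, Aqp1, Antxr2, Enpp3, Rspo3, Itih5 and Mrc1), with a median of -0.94. That list was filled with the calls of these data known and holds the gate gene, so its count describes the list and is not independent evidence. Ackr2, a scavenger of inflammatory chemokines, differed by -0.89 ± 0.19 (adjusted p = 0.106), and the hyaluronan scavenger receptors Stab1 and Stab2 by -0.028 ± 0.13 and -0.21 ± 0.12. None of 14 lymphatic identity genes was called (median -0.13). Flt4, the receptor for VEGF-C, differed by -0.24 ± 0.11 (adjusted p = 0.817). Of 30 genes of lymphatic valves and collecting vessels, 2 were higher, Foxp2 and Mmrn2, with a median of 0.10 beside 0.018 over all genes. Fat4, an atypical cadherin of valve formation, missed the threshold at 0.48 ± 0.092 (adjusted p = 0.0683), and Itga9, the integrin of valve leaflets, differed by -0.0032 ± 0.11.

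Some lists of endothelial pathways had no called member. These were Notch (21 genes tested), VEGF, angiopoietin and FGF receptors (20), BMP and TGF-beta (34), integrins and focal adhesion (26), axon guidance (35), chemokines and leukocyte trafficking (29), interferon response (27), antigen presentation (20) and cell cycle (22). At 0.300% of all genes called, lists of this size would mostly hold none, so a count of 0 says nothing particular about them. At an adjusted p just above the threshold lay Bambi, a decoy receptor of TGF-beta signalling (0.74 ± 0.14, adjusted p = 0.0647), and further off Bmp4, a BMP ligand (0.68 ± 0.14, adjusted p = 0.107), Itga3, a laminin-binding integrin chain (0.60 ± 0.13, adjusted p = 0.107), and Epha4, an ephrin receptor (0.98 ± 0.21, adjusted p = 0.106). In other lists the called members were 1 of 29 nutrient transporters, 1 of 24 cytokine receptors, 2 of 27 genes of lipid handling, 3 of 20 scavenger and endocytic receptors (Lsr higher, Mrc1 and the gate gene Lyve1 lower), 2 of 40 of basement membrane and matrix, 4 of 33 of matrix proteases, and 4 of 39 of cytoskeleton and membrane traffic. Those shares, and those of the lists with a called gene given above, lie above the 0.300% of all genes. In lists this short 1 called gene is enough for that, so it was fixed beforehand and shows no excess. All lists were also filled with earlier results known and got no test. A p above the threshold does not show that these genes were equal in the 2 populations.

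**Figure D4:**
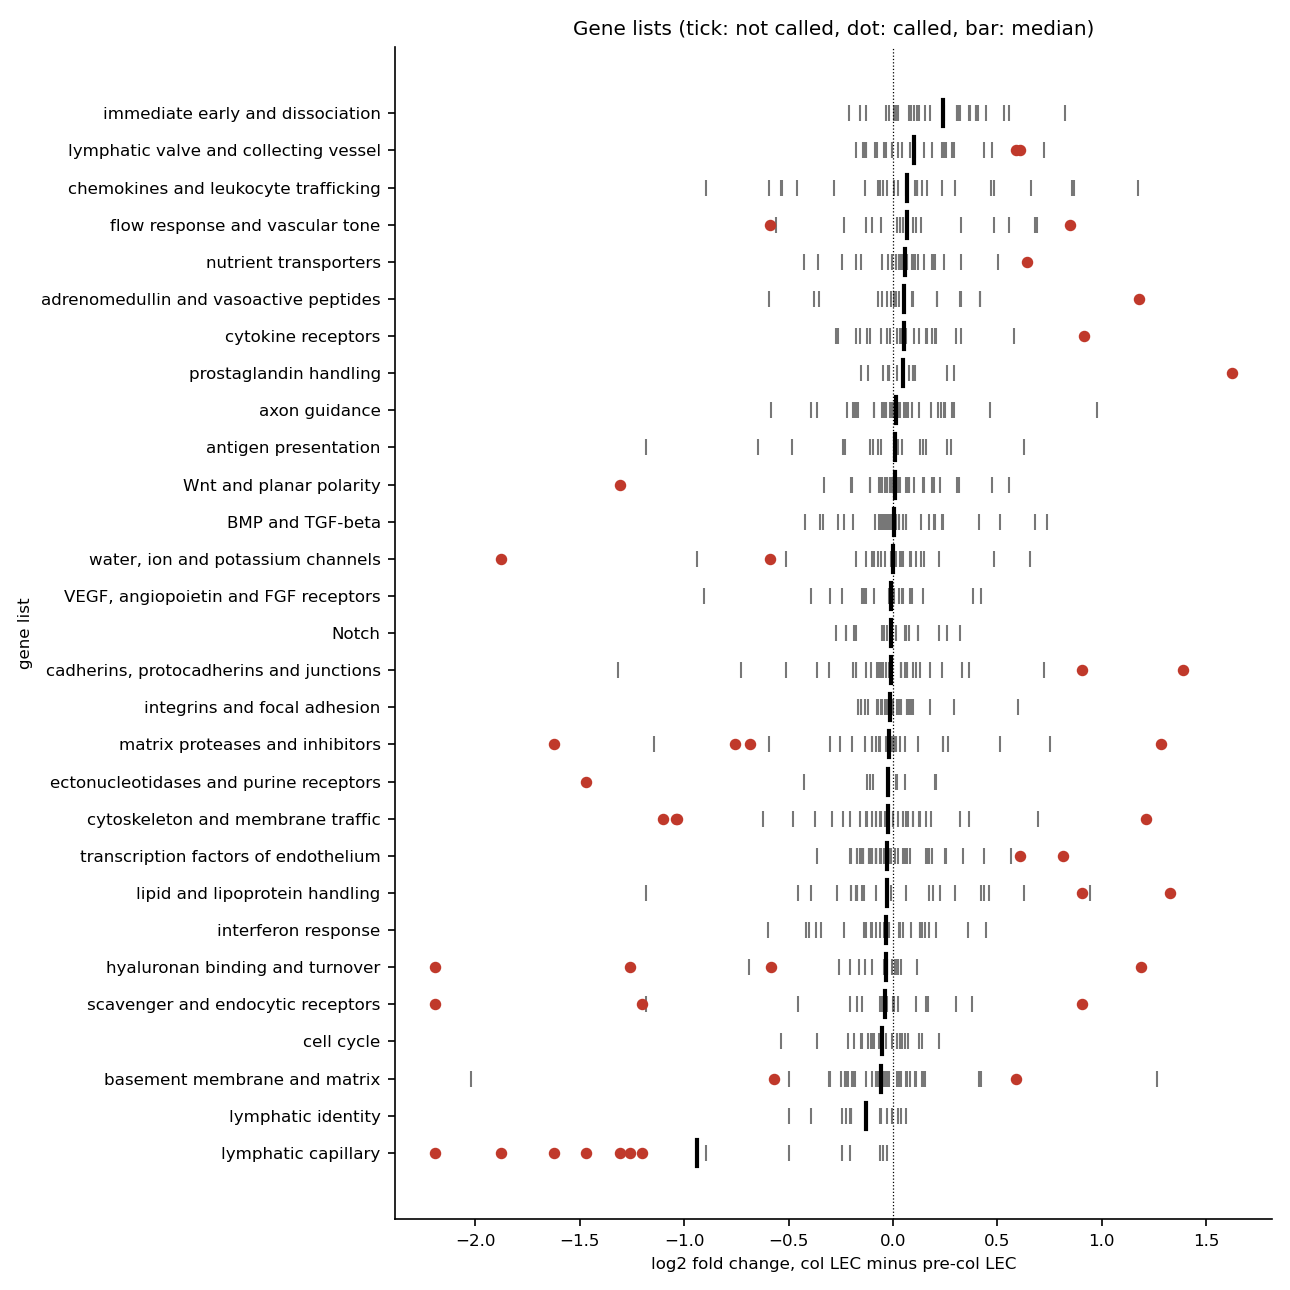
Log2 fold change, col LEC minus pre-col LEC (x axis), of each tested gene in 29 lists, with called genes as dots, others as ticks and the list's median as a bar. The capillary list has its median at -0.94 and the immediate early list at 0.24, and the other medians lie between -0.13 and 0.10.

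Immediate early and dissociation genes, which tissue digestion and sorting are known to induce, lay mostly above 0 without a call. None of 31 passed the threshold, yet 26 had a difference above 0, the median was 0.24, and 11 were above pre-col LEC on every col LEC array, where the share over all genes was 6.95%. Myc measured 9.80, 9.76 and 9.91 in col LEC, against 9.34, 9.49 and 9.54 in pre-col LEC (0.37 ± 0.082, limma, adjusted p = 0.13), and Ier2 9.49, 9.56 and 9.75, against 8.84, 9.28 and 9.02 (0.55 ± 0.15, adjusted p = 0.26). Without pre-col LEC replicate 1 the median was 0.12, with 25 of 31 above 0. The part of dissociation in the differences was not tested.

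Markers of other cells were checked because a sort can carry some along. None of 15 mural cell markers was called, with a median of -0.29 and 13 below 0. Rgs5, a pericyte gene, measured 6.95, 8.15 and 6.90 in col LEC, against 10.21, 8.91 and 7.93 in pre-col LEC, and Acta2, smooth muscle actin, 7.44, 6.88 and 6.86, against 10.21, 7.999 and 6.84. Of 10 tested fibroblast markers none was called and all lay below 0 (median -0.23). Without pre-col LEC replicate 1 the medians were -0.092 for mural cells and -0.024 for fibroblasts. In that fit 13 of 15 mural cell markers still lay below 0, and 5 of 10 fibroblast markers did. The 26 tested blood endothelial markers summed to 25127 to 27113 in col LEC and 23758 to 25793 in pre-col LEC, against 61601 to 68773 in BEC, with no call and a median of -0.061. The part of these cells in the differences was not tested. Without pre-col LEC replicate 1, all 59 genes kept the sign of their difference, which was fixed beforehand because their groups did not overlap. Their fold changes were in size 0.884 to 1.13 times those from all arrays, and 37 kept their call among 47 called.

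**Figure D5:**
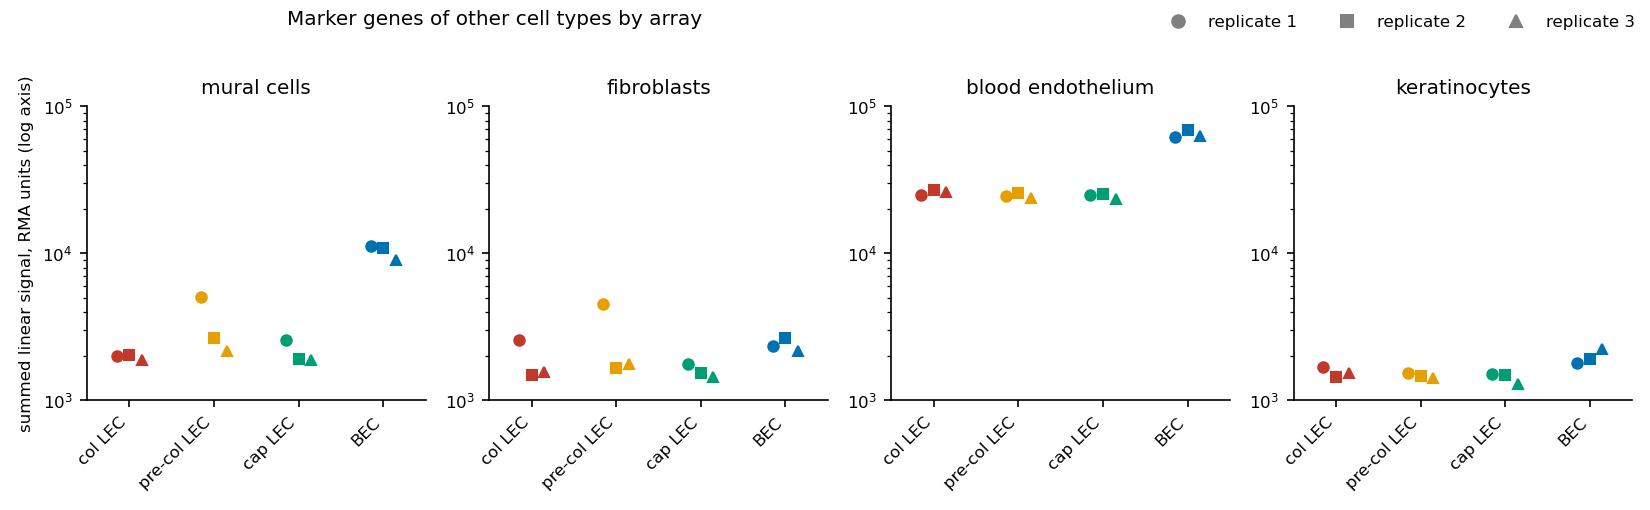
Summed linear signal of 4 marker lists (y axis, log scale) on each of the 12 arrays, by group, with a marker shape for each replicate. Pre-col LEC replicate 1 stands at 5089 for mural cells and 4532 for fibroblasts, above all col LEC arrays, while blood endothelial markers reach 61601 to 68773 in BEC.

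Some genes lay further apart than many called ones without passing the test. Higher without overlap were Sbspon, a thrombospondin-domain protein (1.26 ± 0.27, limma, adjusted p = 0.111), Tec, a cytoplasmic tyrosine kinase (1.15 ± 0.23, adjusted p = 0.0754), the cytokine Il6 (1.17 ± 0.30, adjusted p = 0.237), Fibin (1.07 ± 0.31, adjusted p = 0.377) and Klrb1f (1.04 ± 0.25, adjusted p = 0.178). Klrb1f belongs to a family of close copies that can share probes. Lower without overlap were Pdgfd, a PDGF ligand (-1.48 ± 0.28, adjusted p = 0.0625), Pcdh17, a protocadherin (-1.32 ± 0.29, adjusted p = 0.128), Lpar4, a lysophosphatidic acid receptor (-1.26 ± 0.27, adjusted p = 0.106), Cd248, a surface protein of pericytes and fibroblasts (-1.19 ± 0.55, adjusted p = 0.864), and Cd36, a fatty acid receptor of blood capillaries (-1.18 ± 0.39, adjusted p = 0.509). Cd248 measured 7.48, 7.31 and 7.28 in col LEC, against 10.18, 7.94 and 7.53 in pre-col LEC, and Cd36 7.07, 7.42 and 6.56, against 9.13, 7.83 and 7.64. In both, pre-col LEC replicate 1 was the highest of the 6 arrays, as it was for Rgs5 and Acta2.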

How the data were processed

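Signals came from Affymetrix whole-transcript arrays. The authors deposited them as log2 values made by RMA, a method that the submitters' processing notes name. RMA removes background, equalises the arrays' distributions and combines the probes of a transcript, and so shrinks differences of weak signals. That the scale is log2 was read from the values. Which software and annotation were used, and whether arrays were normalized jointly, was not given in the sources used. The series' design text describes the sort, and the labels' protocols give amplification from 500 pg of total RNA. For arrays, their number limits the precision.

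Of 72688 rows, 30604 named 1 gene symbol and 2146 several, in the platform annotation. After updating 825 symbols through a RefSeq gene table, 30743 genes were each represented by their brightest row. A gene was tested, as 19675 were, if it exceeded the median row of the array on 3 or more of the 12 arrays. Ccl21a, found only on rows shared by several genes, had none. Group means were fitted with limma 3.58.1 (R 4.3.3) on all 12 arrays, with eBayes and Benjamini-Hochberg adjustment over the genes tested. Tests are two-sided, "called" means an adjusted p under 0.05, and errors of differences are moderated standard errors. Plots used matplotlib 3.10.9.

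Genes named were the sort genes, called genes, up to 4 called or 2 leading members of each list, and the 5 uncalled genes in each direction with the largest difference without overlap. Piezo2, Cldn11, Fat4, Stab1, Stab2, Itga9, Foxc2, Gata2 and Acta2 were named after their values were seen. Predicted genes and small RNAs were left out, which removed 10 called names. The groups compared and the gene lists were chosen with earlier results of these data known, so lists are described by counts and medians with no test. Alternatives changed the arrays, filter, normalization, weights, prior, row choice and replicate block. A further item is not reported here.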

Additional observations from a re-analysis of the deposited data

Results flagged for a closer look

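Aqp1 is listed because its 2 steps along the vessel route differed by a test of the difference itself. The step col LEC minus pre-col LEC minus the step pre-col LEC minus cap LEC was -1.68 on the log2 scale (limma, adjusted p = 0.0183). The call was lost without col LEC replicate 1, any 1 of the 3 pre-col LEC arrays, cap LEC replicate 2 or BEC replicate 3, and in the fit of the 9 LEC arrays.

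Rows without a gene symbol also carried signal outside the genes tested. In a fit of 35088 transcript cluster rows, 8 of 14249 rows with no symbol were called between col LEC and pre-col LEC (0.0561%), 2 higher and 6 lower, against 31 of the 19675 gene rows (0.158%). The 8 rows are unnamed here, and what they measure was not tested.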

How the results depend on the processing

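Of the 59 calls, 19 held in each of the 6 fits that left out 1 col or pre-col LEC array, 40 were lost in at least 1 and 10 in all 6. In all 22 alternative settings 5 genes stayed called, among them Parm1, Enpp3, Aqp1 and Lyve1. The count of called genes was 5 with only the 2 groups compared, 153 with array weights (78 of them higher) and 31 with all transcript cluster rows in 1 fit, an alternative chosen after seeing the data, in which more rows were tested. It ranged from 24 to 63 when 1 array was left out. Of the calls, 19 of 59 were higher with array medians set equal, against 23 of 59. Genes called at least 2-fold numbered 5 with only the 2 groups compared and 38 with array weights, and 17 to 27 without 1 array. Genes with unequal steps numbered 0 in the fit of the 9 LEC arrays, 2 with cyclic loess, array weights, the intensity trend with a robust prior, or the replicate block, and 0 to 2 without 1 array. Of the 41 gene lists, 19 held a called gene, and 5 did with only the 2 groups compared. Apart from smaller or larger fits, the cause of these changes was not tested. Prox1 ranged from -0.025 to 0.0783 when 1 array was left out and changed sign without pre-col LEC replicate 1, and Pecam1 changed sign to -0.0025 with cyclic loess, both without a call. Over the 99 genes followed, 1797 values kept direction and side of the threshold, 367 lost the call and 27 gained it. Of the list medians, 891 stayed within the spread and 10 did not. Whether the replicate numbers pair the arrays was not settled, and the main fit did not use them. The correlations of same-numbered deviations were low, at 0.0901, 0.208 and 0.0461. Yet each array correlated best with its own number, as a hint from the data, and replicate 2 had little Xist in every group. The replicate block called 72 genes, 50 of them shared with the 59, and 26 at least 2-fold.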

Other observations

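Predicted genes were kept out of the report by the naming rule, and 4 of them, chosen after their values were seen, are given here. Gm13302 (-0.97 ± 0.17, limma, adjusted p = 0.0376), Gm3893 (-0.97 ± 0.13, adjusted p = 0.0104), Gm7819 (-0.81 ± 0.13, adjusted p = 0.024) and 4933409K07Rik (-0.51 ± 0.073, adjusted p = 0.0132) were lower in col LEC. In the RefSeq gene table each of these 4 has a copy of Ccl21, the chemokine that draws dendritic cells into lymphatics, within 5 genes on either side. Their levels in col LEC were 8.77 to 9.93, against 9.29 to 11.03 in pre-col LEC. Ccl21a itself had no row naming it alone, and close copies can share probes.

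The Xist and Y-linked pattern was the same in every group. Xist was 5.30 to 5.64 on the 4 arrays of replicate 2, against 10.4 to 11.5 on the 8 others. Kdm5d was 7.13 to 7.66 on these 4 arrays, against 5.64 to 6.48, and Uty 7.18 to 7.99, against 5.86 to 6.56. The labels used here give no sex, and each group holds 1 such array.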
